A study of Mus musculus with 4 samples.

Results

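The PDGF ligands and receptors are the 7 genes Pdgfa, Pdgfb, Pdgfc, Pdgfd, Pdgfra, Pdgfrb and Pdgfrl, taken by gene symbol from 48587 symbols in a table of mRNA counts. All 7 were among the 18916 genes with enough counts to be tested. The table holds 4 poly-A-enriched, strand-specific RNA-seq libraries of primary mouse vascular smooth muscle cells (VSMCs), 2 transduced with a control hairpin (shCTR) and 2 with a hairpin to Mettl14 (shMettl14), with a letter A or B on each library. Mettl14 encodes a subunit of the nuclear complex that writes N6-methyladenosine (m6A) into mRNA, and the comparison asks which mRNAs differ in level when it is depleted. The cells grew out of the descending aorta of C57BL/6J mice aged 8 to 12 weeks, after enzymatic removal of the adventitia and scraping of the endothelium, in medium with 15% serum. They received lentivirus for 24 hours and were collected 48 hours after the change to fresh medium, and no PDGF is named as added to these libraries. The control vector carries GFP and a hairpin directed to a plant microRNA, so every library had been transduced, and the shMettl14 libraries rest on a single hairpin sequence.

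PDGFs are secreted dimers that bind the receptor tyrosine kinases PDGFRα (encoded by Pdgfra) and PDGFRβ (encoded by Pdgfrb), which then pair and phosphorylate each other. PDGF-A, -B and -C chains can bind PDGFRα, whereas PDGF-B and PDGF-D bind PDGFRβ, and PDGF-C and PDGF-D are secreted in a latent form whose CUB domain must be cut off. In the artery wall PDGF is a classic signal for smooth muscle cells to divide, migrate and leave the contractile state, and serum itself contains it.

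The METTL3-METTL14 complex methylates adenosines within a short consensus of which GGACT is the commonest form, often near the stop codon. GGACT was therefore searched on the sense strand of the principal transcript of each member (GENCODE M21, build GRCm38). A copy of these letters is a description of the sequence and not a methylated site. The transcripts held 3 copies in Pdgfa, 4 in Pdgfb, 4 in Pdgfc, 2 in Pdgfd, 8 in Pdgfra, 10 in Pdgfrb and 4 in Pdgfrl. Among 14331 tested genes with a matched coding transcript, 91.95% held the motif somewhere and the median was 1.0545 copies per kb. Per length, Pdgfrl had the most of the members with 2.58 copies per kb, followed by Pdgfrb with 1.85, and Pdgfd had the fewest with 1.11. Other transcripts were not searched. The one used for Pdgfd has 1795 bases, against 3131 in its longest, and that for Pdgfrl has 1548, against 2069. Within 100 bases on either side of the stop codon, the share of those genes with a copy was 24.32%, and of the members Pdgfra was the only gene with one. The copy nearest to the stop codon is printed for 6 members, to show what the letters stand in, with GGACT in capitals and 10 bases on each side, 5′ to 3′ on the strand of the mRNA.
Pdgfa: ccgccctgcaGGACTgaccctcgag
Pdgfb: cagatgcaaaGGACTccactccagg
Pdgfc: ttcccctgcaGGACTtcaagtgtct
Pdgfd: ccatcaattcGGACTagaggaagca
Pdgfra: gttgagaagaGGACTtgggtgatgt
Pdgfrl: gattcacagaGGACTgggacacacc
Places are those of the whole printed stretch, and distances those of the GGACT in it. The Pdgfra stretch is at chr5:75195180-75195204 on the plus strand, and its copy is in the 3′ UTR, 93 bases past the stop codon. The Pdgfc stretch is at chr3:81212745-81212769 (plus strand), that of Pdgfb at chr15:79997060-79997084 (minus strand) and that of Pdgfa at chr5:138976818-138976842 (minus strand). Their copies are also in 3′ UTRs, 180, 211 and 388 bases past the stop codon. The Pdgfrl stretch is at chr8:40990353-40990377 and the Pdgfd stretch at chr9:6288635-6288659, both on the plus strand. Their copies are in coding sequence, at distances of -137 and -812 bases from the stop codon, that is, before it.

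Totals ran from 114343653 to 124815868 counts per library, so that the limit a count of 0 allows, 3 counts, was 0.0240 to 0.0262 CPM, that is, counts scaled to the size of the library. This limit covers counting error only. Mettl14 itself had 2050 and 2154 counts in shCTR A and B and 546 and 568 in shMettl14 A and B, or 23.6% of the shCTR level, with a log2 difference of -2.08 (SE 0.25, n = 2 against 2). Its unadjusted p in edgeR's quasi-likelihood test was 0.00039, and after Benjamini-Hochberg adjustment over all genes it was 1.0, as it was for each PDGF gene, whereas DESeq2 called Mettl14 (adjusted p = 3.0e-07) and none of the PDGF genes. The test called 0 of 18916 genes (0%) with the threshold of 0.05 on the adjusted p, and 315 of them (1.67%) had a p under 0.05 before adjustment. Nothing in the labels says that A and B are separate cultures, so the p-values measure the spread between these libraries, and an exact permutation test of 2 against 2 libraries cannot go below 0.333.

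The VSMC cultures, read as bulk RNA, held much more mRNA for PDGFRβ than for PDGFRα. By mean level Pdgfd was the most abundant ligand transcript. Levels were set side by side as CPM per kb of annotated exon. Pdgfrb had a mean level of 62.1 CPM per kb over the 4 libraries and Pdgfra of 1.17. Their ratio was 56.6 in shCTR A, 41.7 in shCTR B, 56.3 in shMettl14 A and 55.9 in shMettl14 B. Pdgfrb thus made up between 97.7% and 98.3% of the summed level of both kinase receptors in every library. The ligands followed in the order Pdgfd (52.1 CPM per kb), Pdgfa (21.0), Pdgfb (10.2) and Pdgfc (4.46), and that order of the ligands was the same in each of the 4 libraries. With the length of the longest transcript in place of all exons, Pdgfa (36.6 CPM per kb) came before Pdgfd (35.4) in shCTR A, and the order by the mean of the 4 libraries was the same. Pdgfrl, which encodes a receptor-like protein without a kinase domain, had a mean level of 1.87 CPM per kb. Pdgfrb and Pdgfd are neighbours in this order whose places changed with the letter. In both A libraries Pdgfrb was first (82.0 and 78.8 CPM per kb, against 35.1 and 44.3 for Pdgfd), and in both B libraries Pdgfd was first (61.3 and 67.6, against 43.3 and 44.2 for Pdgfrb). Pdgfra and Pdgfrl, at the low end, exchanged places in the same way, with Pdgfra above Pdgfrl in both A libraries and below it in both B libraries.

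**Figure D1:**
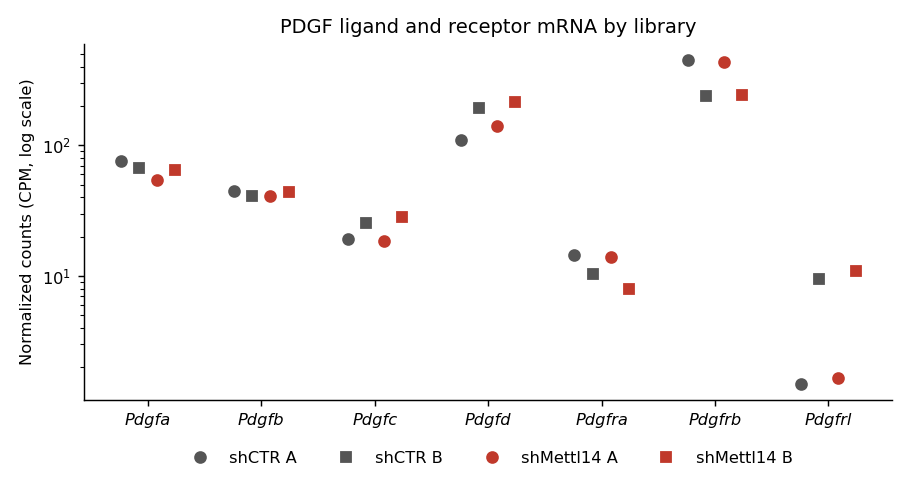
Normalized counts (CPM), on a log axis, of the 7 PDGF genes, with 1 point per library (gray, shCTR; red, shMettl14; circles, letter A; squares, letter B). Points of the same letter lie together for Pdgfd, Pdgfrb and Pdgfrl, whereas Pdgfb spans only 40.9 to 44.8 CPM.

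Of the ligand mRNA per kb, Pdgfd was 47.6% in shCTR A, 62.7% in shCTR B, 58.9% in shMettl14 A and 64.8% in shMettl14 B. Pdgfa made up 32.8% in shCTR A and 22.2%, 23.2% and 19.9% in shCTR B, shMettl14 A and shMettl14 B. The shCTR A library thus stood apart from the other 3 with less of its ligand mRNA from Pdgfd and more from Pdgfa. Pdgfb was 14.6%, 10.1%, 13.1% and 10.1% in the same order, and Pdgfc stayed between 4.81% and 5.27%.

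**Figure D2:**
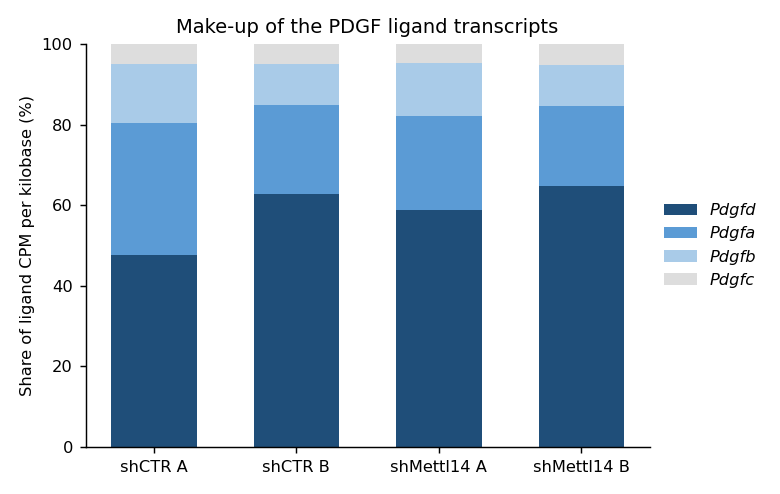
Share of the summed CPM per kb of the 4 PDGF ligand genes (%) that each gene held in each library. By the length of all exons the Pdgfd share is the largest in each library, from 47.6% in shCTR A to 64.8% in shMettl14 B, whereas by the longest transcript Pdgfa (36.6 CPM per kb) exceeds Pdgfd (35.4) in shCTR A.

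Among the ligands, Pdgfa was the only one whose hairpin groups did not overlap after normalization, and its difference did not pass the test. Pdgfa encodes the A chain, whose homodimer binds PDGFRα alone. It had 75.5 CPM in shCTR A, 67.6 in shCTR B, 54.5 in shMettl14 A and 64.7 in shMettl14 B. Both shMettl14 libraries were below both shCTR libraries (13.3% of all genes tested), shMettl14 A the lowest and shMettl14 B only just below shCTR B. The order of the B libraries rests on the normalization (TMM) factors, 0.945 in shCTR B and 1.04 in shMettl14 B. By library totals alone, shMettl14 B would lie above shCTR B. The mean was 71.5 ± 5.55 CPM in shCTR and 59.6 ± 7.18 in shMettl14 (SD, n = 2 each), a log2 difference of -0.26 (SE 0.20, 95% interval -0.79 to 0.26). The edgeR quasi-likelihood p was 0.25 before adjustment. Within the letters the log2 ratio was -0.47 in A and -0.06 in B. The gene (ENSMUSG00000025856) lies on the minus strand at chr5:138976014-138997370, and 26.1% of its exon bases also belong to exons of 6330403L08Rik on the other strand. Whether strand was used in counting is not stated, so reads of both genes may be mixed. That gene had 1945, 1022, 2123 and 1535 counts in shCTR A, shCTR B, shMettl14 A and shMettl14 B, against 8570, 7301, 6473 and 8411 for Pdgfa. Its lowest count was in shCTR B and its highest in shMettl14 A, where that of Pdgfa was lowest.

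Pdgfb, which encodes the B chain that binds both receptors, hardly varied. Its level was 44.8 CPM in shCTR A, 40.9 in shCTR B, 40.9 in shMettl14 A and 43.8 in shMettl14 B. The groups overlapped, and the ratios within the letters had opposite signs (log2 ratio -0.13 in A and 0.10 in B). The log2 difference was -0.02 (SE 0.19, 95% interval -0.51 to 0.48), which turned to 0.0046 with upper-quartile normalization, to 0.05 without shCTR A and to 0.03 without shMettl14 A. The interval still allows a level between 70.1% and 139% of that in shCTR. Pdgfb (ENSMUSG00000000489) is on the minus strand at chr15:79995874-80014977 and shares no exon base with another annotated gene.

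Pdgfc and Pdgfd encode the latent ligands, and both were higher in the B libraries than in the A libraries of the same hairpin. For Pdgfc (ENSMUSG00000028019, plus strand, chr3:81036416-81214040) the values were 19.1 CPM in shCTR A, 25.3 in shCTR B, 18.4 in shMettl14 A and 28.0 in shMettl14 B. The shMettl14 libraries lay outside the shCTR libraries on either side, so the groups overlapped. The log2 difference between hairpins was 0.06 (SE 0.30, 95% interval -0.72 to 0.85), with ratios of -0.05 in A and 0.15 in B. It turned to -0.12 without shCTR A and to -0.26 without shMettl14 B, when the groups no longer held the same letters. The overlapping gene Gm16000, which shares 2.89% of the exon bases on the other strand, had no more than 1 count in any library.

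Pdgfd, a ligand of PDGFRβ (ENSMUSG00000032006, plus strand, chr9:6168584-6378850), had 111 CPM in shCTR A, 193 in shCTR B, 140 in shMettl14 A and 213 in shMettl14 B. The shMettl14 library was above the shCTR library of its own letter in both letters (log2 ratio 0.33 for A and 0.14 for B), but shMettl14 A stayed below shCTR B. The mean was 152 ± 58.4 CPM in shCTR and 176 ± 52.1 in shMettl14 (SD, n = 2 each), and the log2 difference was 0.21 (SE 0.37, 95% interval -0.73 to 1.16, unadjusted p = 0.58 by edgeR's quasi-likelihood test). That difference turned to -0.13 without shCTR A and to -0.12 without shMettl14 B, when the groups no longer held the same letters. The difference between letters was larger than that between hairpins: B was 1.75-fold of A in shCTR and 1.53-fold in shMettl14.

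Of the receptors, Pdgfra was lower in the shMettl14 library of each letter, by little in A and by more in B. Pdgfra encodes the kinase receptor for A, B and C chains and is a common marker of mesenchymal cells (ENSMUSG00000029231, plus strand, chr5:75152292-75198215). It had 14.5 CPM in shCTR A, 10.4 in shCTR B, 14.0 in shMettl14 A and 7.93 in shMettl14 B. The A libraries were close to each other and above both B libraries, and shMettl14 B was the lowest of all. The log2 ratio was -0.05 within A and -0.39 within B, and the sign within A rests on the normalization factors. Over both letters the log2 difference was -0.18 (SE 0.38, 95% interval -1.16 to 0.80, unadjusted p = 0.65 by edgeR's quasi-likelihood test). It turned to 0.08 without shCTR A and to 0.18 without shMettl14 B, when the groups no longer held the same letters. Exons of Gm42802 and Gm42803 cover 6.21% of its exon bases on the other strand, with at most 6 counts in a library, and Mir7025 covers 0.299% on its own strand.

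Pdgfrb, the receptor for B and D chains that marks mural cells, differed little between hairpins and much between letters. It had 449 CPM in shCTR A, 237 in shCTR B, 432 in shMettl14 A and 242 in shMettl14 B. Libraries of the same letter were nearly level, and both B libraries were well below both A libraries. B was 0.528-fold of A in shCTR and 0.561-fold in shMettl14. The log2 ratios between hairpins were -0.06 within A and 0.03 within B, of opposite sign, and the log2 difference over both letters was -0.03 (SE 0.43, 95% interval -1.13 to 1.08). It turned to 0.51 without shCTR A and to 0.33 without shMettl14 B, when each group no longer held both letters. The interval runs from 45.5% to 212% of the shCTR level, a range that includes a difference as large as that between the letters. This fit takes no account of the letter, so the difference between letters counts as spread in the interval. The gene (ENSMUSG00000024620) is on the plus strand of chromosome 18, from 61045150 to 61085061, and shares no exon base with another annotated gene.

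Pdgfrl, the receptor-like gene without a kinase domain (ENSMUSG00000031595, plus strand, chr8:40926212-40990785), had the widest range of all members. It had 1.48 CPM in shCTR A, 9.44 in shCTR B, 1.64 in shMettl14 A and 10.8 in shMettl14 B, from 168, 1020, 195 and 1405 counts. Both B libraries were far above both A libraries, 6.38-fold in shCTR and 6.58-fold in shMettl14. Its mean absolute log2 difference between letters, 2.68, was larger than that of 98.0% of the genes tested. Within the letters the shMettl14 library was above the shCTR library by little (log2 ratio 0.15 for A and 0.19 for B). The log2 difference over both letters was 0.19 (SE 1.17, 95% interval -2.82 to 3.20). It turned to -0.60 without shCTR A and to -1.72 without shMettl14 B, when the groups no longer held the same letters. The fit behind the interval takes no account of the letter, so the wide difference between letters counts as spread in it.

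**Figure D3:**
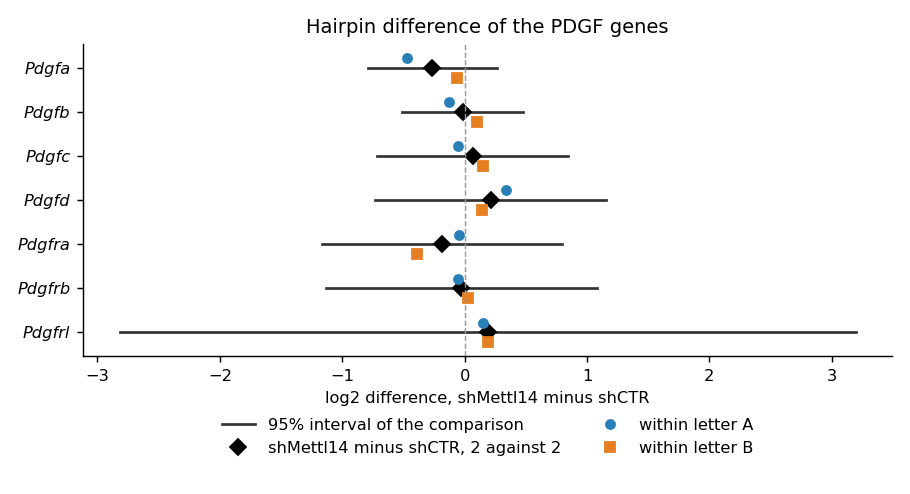
Log2 difference between shMettl14 and shCTR of each PDGF gene (diamond, with the 95% interval of the edgeR fit as a line) and the log2 ratio within letter A (circle) and within letter B (square). Every interval crosses 0, and that of Pdgfrl is the widest, from -2.82 to 3.20. The fit takes no account of the letter, so differences between letters widen these intervals.

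Read over the 7 members, 0 passed the test and 0 had a p under 0.05 before adjustment, beside 0% and 1.67% of all genes tested. By DESeq2, 0 of the 7 passed as well. Pdgfd and Pdgfrl, 2 of 7, were higher in the shMettl14 library of both letters, as were 30% of all genes tested. Pdgfa and Pdgfra, again 2 of 7, were lower in both letters, as were 27.7% of all genes. The signs of Pdgfa in B and of Pdgfra in A rest on the normalization factors. The other 3 (Pdgfb, Pdgfc and Pdgfrb) had ratios of opposite sign in the letters. After normalization only Pdgfa had groups that did not overlap. Thus 1 of 7 was lower in both shMettl14 libraries than in both shCTR libraries (13.3% of all genes) and 0 of 7 were higher in both (14.7%). With 7 genes, these shares lie near those of all genes. The median log2 difference of the members was -0.02, beside 0.0094 for all genes. In bulk RNA of this kind, fewer cells that express a gene and less of its mRNA per cell cannot be told apart.

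The letter moved 5 of the 7 members more than the hairpin did. The mean absolute log2 difference between letters was larger than the mean absolute log2 ratio between hairpins for Pdgfc (0.50 against 0.10), Pdgfd (0.71 against 0.24), Pdgfra (0.65 against 0.22), Pdgfrb (0.88 against 0.04) and Pdgfrl (2.68 against 0.17). This was so for 56.3% of all genes tested. Pdgfa (0.20 against 0.27) and Pdgfb (0.11 against 0.11) were the exceptions. The direction differed among members: in B against A of the same hairpin, Pdgfc, Pdgfd and Pdgfrl were higher and Pdgfra and Pdgfrb lower, in both hairpin groups. Over all genes tested the median absolute letter difference was 0.51 in shCTR and 0.34 in shMettl14. The shCTR B library had a count for 21736 genes, against 25268 in shCTR A, 25117 in shMettl14 A and 24570 in shMettl14 B. The part of this library in the letter differences was not tested. What the letters mark is not stated, and with 1 library per letter and hairpin the letter difference is given here as a description.

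Markers of the cell types that an aortic explant could hold also moved with the letter. The summed level of 5 pericyte markers (5 of 5 tested) was 556 CPM in shCTR A, 217 in shCTR B, 502 in shMettl14 A and 208 in shMettl14 B, the same order of letters as Pdgfrb. Rgs5, with 286, 40.5, 270 and 48.8 CPM, and Cspg4, with 252, 137, 202 and 110, made up most of that sum, whereas Kcnj8, Abcc9 and Notch3 were higher in the B libraries than in the A libraries of their hairpin. The 6 endothelial markers (6 of 6 tested) summed to 1827, 3903, 1716 and 2401 CPM, higher in B than in A as were Pdgfc, Pdgfd and Pdgfrl. Emcn, with 649, 2100, 484 and 1077 CPM, carried most of that difference, whereas Tie1 was lower in B (171, 136, 158 and 134 CPM). Cdh5, the endothelial cadherin, had 508, 818, 566 and 617 CPM, Pecam1 had 477, 820, 485 and 545 CPM, Vwf was between 16.4 and 18.9 CPM and Tek between 5.04 and 10.9 CPM. The 6 fibroblast markers summed to 721, 853, 763 and 909 CPM. Nearly all of that sum was Cd34 (between 414 and 505 CPM), Ly6a (between 195 and 282) and Dcn (between 68.3 and 160). Pi16, Dpt and Lum were under 1 CPM in every library, so the sum does not stand for the whole list. The 5 leukocyte markers (2 tested, with Adgre1, Itgam and Cd3e not tested for low counts) summed to between 4.05 and 4.97 CPM, and the 3 platelet markers (2 tested) to between 2.50 and 4.50 CPM. The part of these cell types in the values of the PDGF genes was not tested.

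Of the 7 smooth muscle markers, Acta2 (smooth muscle actin, between 2073 and 3547 CPM) and Tagln (between 1616 and 2449 CPM) made up most of the sum, whereas Myocd, a transcriptional coactivator, had 0.546, 7.10, 0.918 and 6.60 CPM in shCTR A, shCTR B, shMettl14 A and shMettl14 B. In that order Myh11 had 338, 101, 233 and 75.0 CPM and Cnn1 237, 135, 143 and 118. Like Pdgfrb, both were lower in B than in A of the same hairpin, as were Acta2 and Lmod1, whereas Tagln, Smtn and Myocd were higher. The summed level of the list was 6797 CPM in shCTR A, 5770 in shCTR B, 4442 in shMettl14 A and 4809 in shMettl14 B (7 of 7 tested). Both shMettl14 sums were below both shCTR sums, and 5 of 7 genes were lower in both letters (27.7% of all genes tested), whereas Myocd and Lmod1 had ratios of opposite sign. Only Acta2 and Tagln, 2 of 7, were lower with groups that did not overlap (13.3% of all genes). The test called 0 of 7 (0% of all genes), and 1 of 7 (Acta2) had a p under 0.05 before adjustment (1.67% of all genes). Of the PDGF genes, Pdgfa alone had both shMettl14 libraries below both shCTR libraries after normalization, as Acta2 and Tagln had. Whether these are related was not tested.

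**Figure D4:**
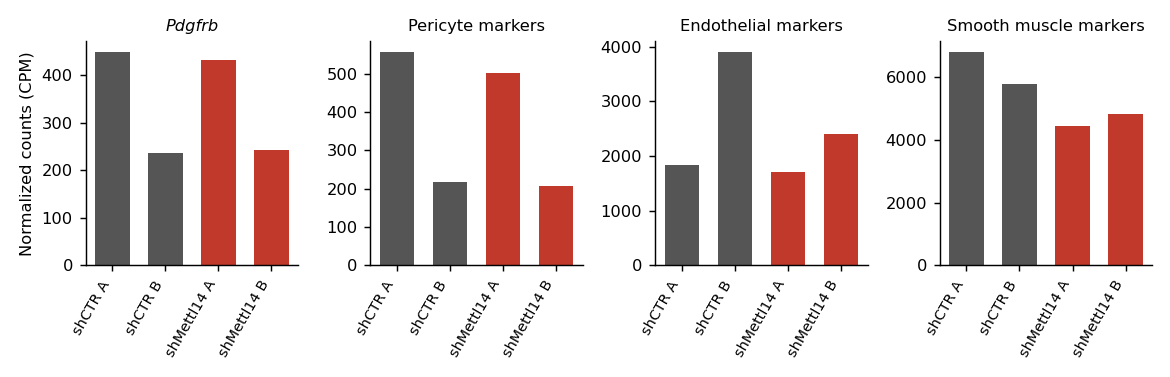
Normalized counts (CPM) of Pdgfrb and summed CPM of 3 marker lists in each library (gray bars, shCTR; red bars, shMettl14; each panel has its own axis from 0). Pdgfrb and the pericyte sum, which is mostly Rgs5 and Cspg4, are high in both A libraries, whereas Kcnj8, Abcc9 and Notch3 are higher in B. The endothelial sum is highest in shCTR B, and the smooth muscle sum, which is mostly Acta2 and Tagln, is lower in both shMettl14 libraries.

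Of the genes that act around the PDGF ligands and receptors, 0 in any list passed the test. The ligand-processing list holds 4 proprotein convertases and 3 proteases that release the CUB domain of PDGF-C or PDGF-D. All 7 were tested, all 7 had a log2 difference above 0, 5 were higher in both letters (30% of all genes tested) and 2 were higher with groups that did not overlap (14.7% of all genes), with a median of 0.26 beside 0.0094 for all genes. Plat, tissue plasminogen activator, which cleaves latent PDGF-C, had 39.0 CPM in shCTR A, 44.8 in shCTR B, 55.6 in shMettl14 A and 69.8 in shMettl14 B. Both shMettl14 libraries were above both shCTR libraries. Its log2 difference of 0.58 (SE 0.22, 95% interval 0.02 to 1.15) was the largest of the list and had a p of 0.046 in edgeR's quasi-likelihood test, which Benjamini-Hochberg adjustment over all genes raised to 1.0. Pdgfc itself, whose product Plat acts on, had a log2 difference of 0.06. Plau, urokinase, which cleaves latent PDGF-D, had 84.5, 71.4, 80.5 and 106 CPM in shCTR A, shCTR B, shMettl14 A and shMettl14 B, with groups that overlapped and a log2 difference of 0.26 (SE 0.23). The convertases with the highest levels, Pcsk6 and Furin, had log2 differences of 0.08 (SE 0.28) and 0.10 (SE 0.30).

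Coreceptors and related receptors and ligands (14 tested of 15 in the table) had 1 gene above 0 and 13 below (Lrp1 and Vegfa barely, at -0.01 each), a median log2 difference of -0.09, none higher in both letters (30% of all genes tested) and 5 lower in both (27.7%). Lrp1, a large endocytic receptor that binds PDGFRβ, was the most abundant with 1456 CPM in shCTR A, 1350 in shCTR B, 1743 in shMettl14 A and 1049 in shMettl14 B. The shMettl14 libraries were its highest and its lowest, and the log2 difference was -0.01 (SE 0.29). Eng, endoglin, a TGF-β coreceptor that endothelial cells express strongly, had 284, 537, 247 and 337 CPM in the same order and the lowest log2 difference of the list, -0.49 (SE 0.37), with ratios of -0.20 in A and -0.67 in B. The endothelial sum above had its highest value in the same library, shCTR B. Nrp1, neuropilin, had the highest log2 difference at 0.03 (SE 0.37), and Vegfa, a relative of the PDGF ligands, had -0.01 (SE 0.34).

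The 24 genes of receptor-proximal signalling, whose products bind the phosphorylated receptors or relay their signal, were spread around 0. Of these, 13 had a log2 difference above 0 and 11 below, 9 were higher and 6 lower in both letters (30% and 27.7% of all genes tested), and the median was 0.02. Shc1, an adaptor, was the most abundant, with 297, 284, 281 and 299 CPM in shCTR A, shCTR B, shMettl14 A and shMettl14 B and a log2 difference of -0.01 (SE 0.18). Ptpn11, the phosphatase SHP2, and Stat3 had log2 differences of 0.20 (SE 0.21) and 0.02 (SE 0.21). In this list 4 genes were higher and 2 lower with groups that did not overlap (14.7% and 13.3% of all genes). The outermost genes, both adaptors, were among these. Crk had 192, 158, 220 and 226 CPM, a log2 difference of 0.35 (SE 0.20). Gab1 had 24.4, 31.8, 20.3 and 20.1 CPM, a log2 difference of -0.48 (SE 0.23).

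Among the 12 genes of receptor dephosphorylation and degradation, 6 had a log2 difference above 0 and 6 below, with a median of -0.05. Of these, 5 were higher and 5 lower in both letters (30% and 27.7% of all genes tested). With groups that did not overlap, 0 were higher and 2 lower (14.7% and 13.3% of all genes). Grb10, an adaptor that binds the activated receptor, had 499 CPM in shCTR A, 262 in shCTR B, 454 in shMettl14 A and 254 in shMettl14 B. Like Pdgfrb it was lower in both B libraries and almost level between hairpins, with a log2 difference of -0.11 (SE 0.43). Ptpn1, the phosphatase PTP1B, had a log2 difference of 0.19 (SE 0.27), and Cbl, a ubiquitin ligase that marks the receptors for degradation, -0.12 (SE 0.25). Sh3kbp1, which works with Cbl in receptor uptake, had 51.9, 44.8, 39.6 and 29.1 CPM, both shMettl14 libraries below both shCTR libraries, and a log2 difference of -0.49 (SE 0.24). Sla, the gene with the highest difference (0.52, SE 0.72), was under 0.4 CPM in every library.

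The 15 early genes that PDGF is known to induce had 0 called. Of these, 4 had a log2 difference above 0 and 11 below, 2 were higher and 9 lower in both letters (30% and 27.7% of all genes tested), and 4 were lower with groups that did not overlap (13.3% of all genes). The median was -0.24, beside 0.0094 for all genes. Egr1, a zinc finger transcription factor, had 401 CPM in shCTR A, 335 in shCTR B, 304 in shMettl14 A and 317 in shMettl14 B. Both shMettl14 libraries were lower, and the log2 difference was -0.24 (SE 0.20). Egr2, of the same family, had 9.78, 5.89, 4.43 and 3.87 CPM in that order, with the lowest log2 difference of the list at -0.92 (SE 0.37, 95% interval -1.87 to 0.04, unadjusted p = 0.056 by edgeR's quasi-likelihood test). Junb, an AP-1 subunit, had 412, 101, 311 and 135 CPM, so that its letters lay further apart than its hairpins and its ratios had opposite signs. Ier3 had a log2 difference of -0.28 (SE 0.41), and Fosb, with the highest difference, of 0.20 (SE 0.60).

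**Figure D5:**
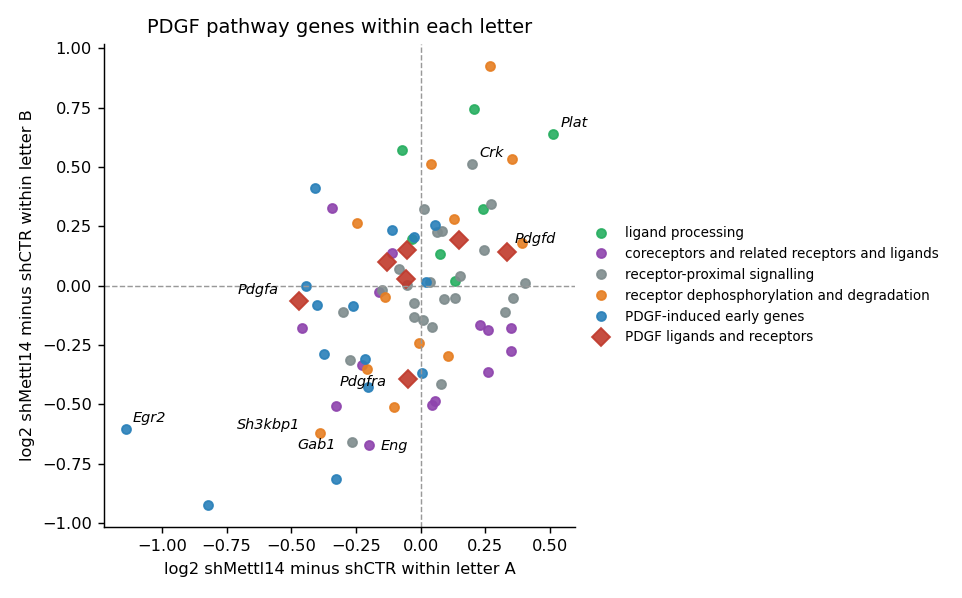
Log2 ratio of shMettl14 to shCTR within letter A (x) against that within letter B (y) for the 7 PDGF genes (red diamonds) and the tested genes of 5 PDGF pathway lists (colored points), with dashed lines at 0. The PDGF genes lie within 0.5 of 0 on both axes, Plat is at 0.51 and 0.64, and Egr2 at -1.14 and -0.60.

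The genes whose pattern over the 4 libraries was most like that of a member were sought among 9097 genes with a mean of at least 10 CPM, by the root-mean-square difference of centred log2 CPM. Pdgfa was closest to Oard1 (0.0123), Zmat2 (0.018) and Dnaja1 (0.023), and 270 genes lay within 0.1 of it. For Pdgfra the closest were Aars2 (0.0242), Dusp7 (0.0283) and Tle1 (0.0338), with 77 genes within 0.1. For Pdgfrb they were Trabd2b (0.014), Mxra7 (0.0278) and Oplah (0.0295), with 94 genes within 0.1. With 4 libraries as the only points, and the letters shared by all genes, such likeness is common, as the numbers within 0.1 show.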

How the data were processed

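The authors mapped read pairs of poly-A-enriched, stranded libraries with STAR to GRCm38 (mm10 in the submitters' processing notes, Ensembl 86 annotation) and assigned them to genes with featureCounts. What was deposited is raw counts, in 1 table of gene symbols. Whether strand was used in counting, and how reads with several places were treated, is not given in the sources used here. Libraries were grouped by hairpin from their titles. Counts were normalized by TMM, filtered with filterByExpr and fitted without a block by the robust quasi-likelihood method of edgeR 4.0.16 (R 4.3.3), and p-values were adjusted by Benjamini-Hochberg over all 18916 genes tested. Genes under 0.05 after adjustment were called. The SE of a log2 difference is its size over the root of the F statistic. Within-letter and between-letter log2 values used log2 CPM with a prior count of 2 and have no test. CPM values use TMM library sizes. Gene places, exon lengths, overlaps and GGACT copies came from GENCODE M21 on GRCm38, whose annotation release differs from that of the counts. Distances run from the stop codon to the A of GGACT.

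The named genes were the 7 members, Mettl14, the 3 genes of highest mean CPM and those with the highest and lowest log2 difference in each pathway list, any gene called, and the 3 genes most like Pdgfa, Pdgfra and Pdgfrb. Marker genes and overlapping genes were named for the values beside them. The coreceptor list also held the symbol Figf, which is an older name of Vegfd, and Flt3, which did not pass the filter. The members and lists were chosen with earlier results of these data known. Alternatives were DESeq2 1.42.0, RLE and upper-quartile factors, no filter beyond 1 count, at least 10 counts in every library, the letter as a block, each library left out, a prior count of 0.5 and the length of the longest transcript. The fits were run on simulated counts with no letter difference and less spread than the reported fit found. How well the fits perform on libraries like these was therefore not tested. Python 3.11.15 with pandas 2.3.3, numpy 2.4.6 and matplotlib 3.10.9 did the remaining steps.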

Additional observations from a re-analysis of the deposited data

How the results depend on the processing

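Under every alternative 0 of the 7 PDGF genes and 0 of the list genes were called, the prior count turned no within-letter ratio, and transcript length left the order by mean level but put Pdgfa before Pdgfd in shCTR A. With upper-quartile factors Pdgfb turned to 0.0046. Leaving out 1 library, the log2 difference ran from -0.39 to -0.14 for Pdgfa, -0.085 to 0.054 for Pdgfb, -0.26 to 0.34 for Pdgfc, -0.13 to 0.67 for Pdgfd, -0.65 to 0.18 for Pdgfra, -0.50 to 0.51 for Pdgfrb and -1.72 to 2.07 for Pdgfrl. Pdgfa kept its sign. Pdgfb turned without shCTR A (0.05) or shMettl14 A (0.03), and the other 5 turned without shCTR A or shMettl14 B. These fits leave 1 library alone, assumed to vary like the other group. The groups then no longer hold the same letters, so the letter difference enters each of these values. Over all genes DESeq2 called 5 and the replicate block 9, and the count was 0 to 1 with a library left out (1 without shCTR B). At an unadjusted p under 0.05 the counts were 315 in the reported fit, 442 by DESeq2, 1941 with the replicate block and 78 to 1399 with a library left out. Mettl14 had a log2 difference of -2.09 by DESeq2 (adjusted p = 3.0e-07) and of -2.08 with the replicate block (adjusted p = 0.0039 by edgeR's quasi-likelihood test), and was called in both. Libraries of the same letter deviated together (r = 0.58 across genes, which are not independent replicates), but no label says that a letter marks a shared culture. With the replicate block the 95% interval narrowed, for example to -0.36 to 0.33 for Pdgfrb and to -0.31 to 0.66 for Pdgfrl. With 2 libraries per group, differences of the size seen here could not be told from 0.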
